A study of Mus musculus with 24 samples.

Results

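The mouse carries a small class of imprinted genes, which are read mainly from the copy inherited from 1 parent, and 10 of them with roles in the growth of the embryo were followed through the developing first lower molar: H19, Cdkn1c, Dlk1, Meg3, Rtl1, Peg3, Plagl1, Grb10, Mest and Ndn. They are a list of gene names taken from 56748 genes in the count table, with no threshold on their values, although earlier results of these data were known when it was drawn up. All 10 were found there, with 1 identifier each, and all 10 passed the filter on low counts in every comparison. RNA of dental mesenchyme, the neural crest derived tissue that forms dentin, pulp and the tooth's supporting tissue, was sequenced from 24 libraries in 8 groups of 3.

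All embryos were of the outbred ICR stock, with no genetic change named for these groups, and were taken at the cap stage, embryonic day 13, or the bell stage, embryonic day 15. Cap-W and Bell-W held the mesenchyme of undivided tooth germs. Cap-L, Cap-B, Bell-L and Bell-B held the mesenchyme of the lingual (tongue side) and buccal (cheek side) parts, cut apart with a fine needle. Cap-L + 2D and Cap-B + 2D held cap parts that had grown alone in vitro for 2 days. In all groups the mesenchyme had been freed of epithelium with dispase II before RNA extraction. Embryos of several litters were used, and which of them entered which library is not given in the sources used here, so the p-values measure only the spread between these libraries, which may be technical.

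Imprinted genes lie in clusters in which a differentially methylated control region silences a gene on the maternal or the paternal chromosome. H19 and Meg3 are noncoding RNAs made from the maternal copy, at the Igf2-H19 and the Dlk1-Meg3 clusters. Cdkn1c, an inhibitor of cyclin-dependent kinases, and Grb10, an adaptor that damps insulin and IGF receptor signalling, are mainly maternal outside the nervous system, whereas Dlk1, a membrane protein related to the Notch ligands, Rtl1, a gene derived from a retrotransposon, the zinc finger genes Peg3 and Plagl1, the hydrolase-like Mest and the MAGE family gene Ndn are paternal. Many of them are known as a network of genes that are high in the fetus and decline as tissues stop growing. The counts do not tell the 2 parental copies apart, so none of the values below measures imprinting itself.

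Sequence matters for how these counts can be read, because the counting did not use strand. Rtl1 lies opposite a run of microRNAs that are transcribed from the maternal Meg3 side of the cluster, so read pairs counted for Rtl1 could come from Rtl1 or from an antisense transcript that runs across it. Pairs lying on the annotated microRNA genes themselves could belong to either gene, and pairs that met 2 genes alike were counted for neither. The 5 mature microRNAs below were placed on GRCm39 by exact match, and each lies inside a coding exon of Rtl1 on the opposite strand. They are shown because they mark where annotated antisense RNA lies within Rtl1, and capitals mark the seed, bases 2 to 8. The mature sequences are those of RefSeq.
mmu-miR-431-5p: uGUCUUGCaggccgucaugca
mmu-miR-433-3p: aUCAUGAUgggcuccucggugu
mmu-miR-127-3p: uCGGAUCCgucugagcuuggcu
mmu-miR-434-3p: uUUGAACCaucacucgacuccu
mmu-miR-136-5p: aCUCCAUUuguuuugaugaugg

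The matching stretches of the Rtl1 coding strand are their complements, here with the bases facing the seed in capitals.
Rtl1 opposite miR-431-5p, chr12:109556893-109556913: tgcatgacggcctGCAAGACa
Rtl1 opposite miR-433-3p, chr12:109558215-109558236: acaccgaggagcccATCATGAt
Rtl1 opposite miR-127-3p, chr12:109559322-109559343: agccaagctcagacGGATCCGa
Rtl1 opposite miR-434-3p, chr12:109560999-109561020: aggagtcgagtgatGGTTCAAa
Rtl1 opposite miR-136-5p, chr12:109561765-109561786: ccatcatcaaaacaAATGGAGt

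Other members carry microRNAs on their own strand. H19 holds miR-675 in an exon (its 2 arms at chr7:142130849-142130870 and chr7:142130815-142130836), Meg3 holds miR-770 in an exon (chr12:109530144-109530165), and Mest holds miR-335 in an intron (chr6:30741313-30741335). They are shown because a host gene's counts are the only measure of these transcripts here. The mRNA libraries were not made for mature microRNAs, and none was measured. All 9 seeds, of the 5 above and the 4 below, differ from each other.
mmu-miR-675-5p: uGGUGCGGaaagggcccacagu
mmu-miR-675-3p: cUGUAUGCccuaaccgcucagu
mmu-miR-770-5p: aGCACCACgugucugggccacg
mmu-miR-335-5p: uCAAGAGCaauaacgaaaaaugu

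On GRCm39, H19 lies at chr7:142129262-142131886, Cdkn1c at chr7:143012076-143014787, Ndn at chr7:61996317-62000010 and Peg3 at chr7:6706891-6733430. Dlk1 (chr12:109418749-109429262), Meg3 (chr12:109506879-109538165) and Rtl1 (chr12:109555627-109566764) are neighbours on chromosome 12. Plagl1 lies at chr10:12936248-13007438, Grb10 at chr11:11880508-11988683 and Mest at chr6:30723546-30748464. The share of exon bases covered by exons of another annotated gene was 0 for Dlk1, Peg3, Grb10 and Ndn. It was 0.486% for Plagl1, 1.86% for Meg3, 8.40% for Rtl1 and 8.57% for H19. It was 23.1% for Mest, which meets Copg2, and 30.7% for Cdkn1c, which meets Gm44732. Read pairs that could not be assigned to a single gene are not in the deposited counts.

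Libraries held 20581720 to 39266497 assigned read pairs (median 27677163), so that 3 read pairs correspond to 0.0764 to 0.146 CPM (counts per 1000000). All levels below are CPM after 1 scaling over the 24 libraries. In every group the replicates differed beyond counting noise, with a chi-square per degree of freedom of 1.32 to 9.84 between replicates of a part and of 7.89 to 161 between undivided replicates. Cap-W replicate 1 had 5.39% of its counts on the ribosomal gene Rn18s-rs5, and Bell-W replicates 1 and 2 had 1.3% and 1.43%, against 0.0761% to 0.304% in the other 21 libraries. Bell-W replicate 3 had a summed level of 8 epithelial markers of 1850 CPM, against 466 and 544 CPM in the other two.

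Dental mesenchyme markers such as Msx1, Pax9, Barx1 and Lhx6 were well above the floor in every library. The summed level of 10 such markers, Vim among them, lay between 3200 and 4550 CPM in all 24 libraries. Single markers moved within that sum. From Cap-L to Cap-L + 2D mean Vim went from 1090 to 2040 CPM and mean Msx1 from 459 to 268 CPM. Markers of other tissues moved with the groups. The 12 skeletal muscle genes summed to 11.2 to 24.2 CPM in the undivided libraries, 23.4 to 24.1 in Cap-L and 262 to 279 in Cap-B. Their sum was 145 to 157 in Bell-L, 1180 to 1210 in Bell-B, 381 to 410 in Cap-L + 2D and 4660 to 4960 in Cap-B + 2D. The 7 erythroid genes summed to 1580 to 4030 CPM in uncultured libraries and to 20.4 to 29.1 CPM after culture, in which 5 of the 7 stayed above the floor in all libraries. In bulk tissue, fewer cells of a type and less RNA per cell cannot be told apart.

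**Figure D1:**
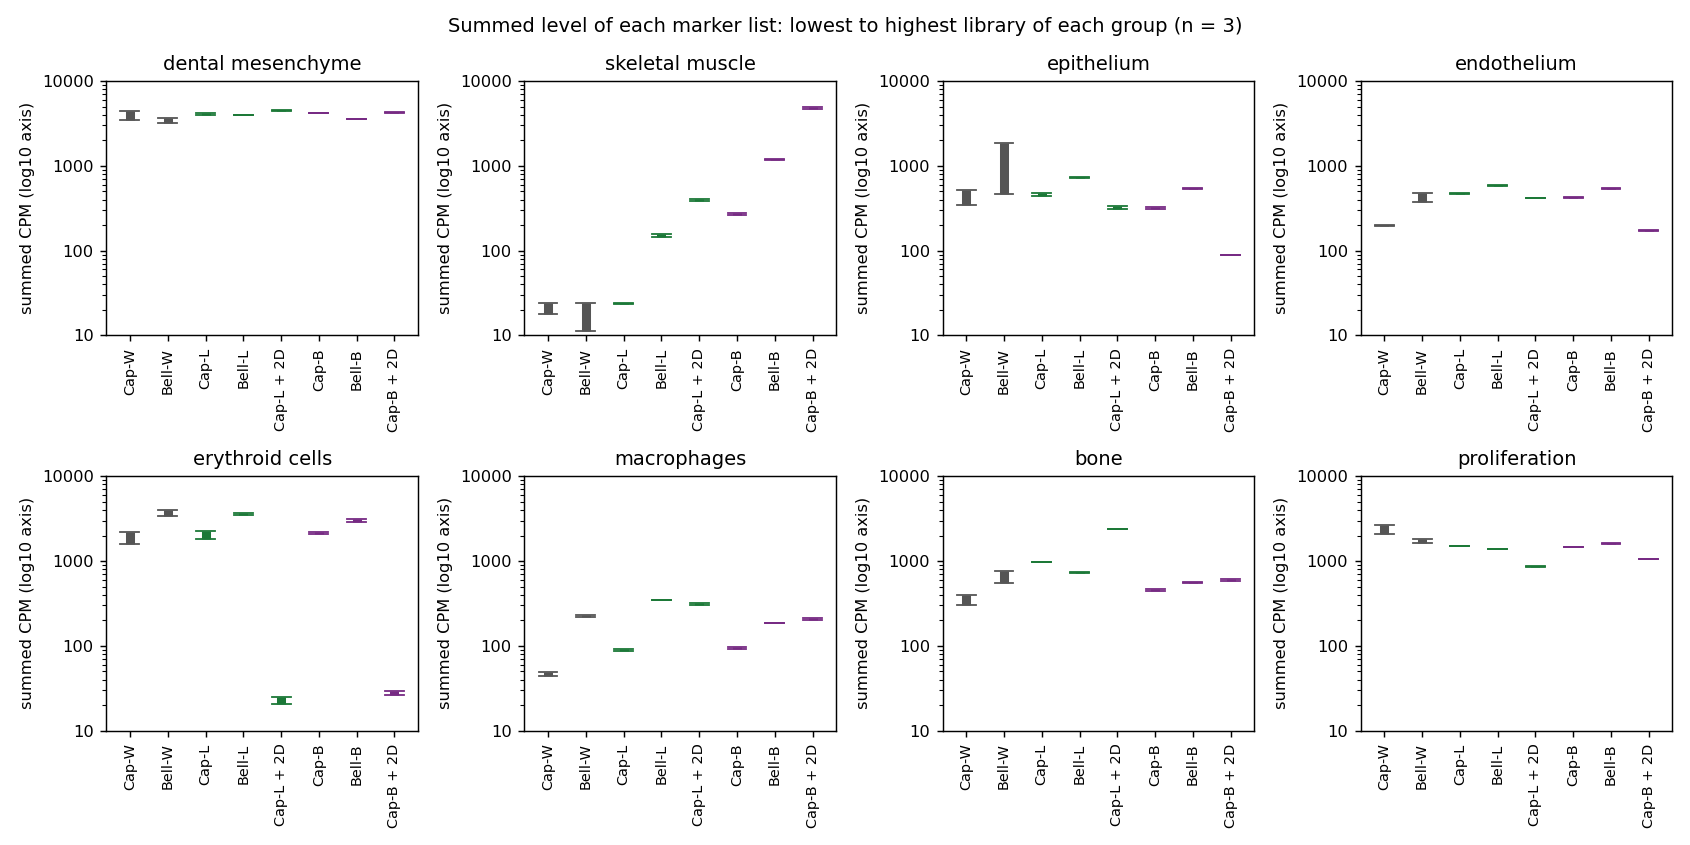
Summed CPM (log10 axis) of marker genes of the dental mesenchyme, of other cell types and of proliferation, in each of the 8 groups. Bars run from the lowest to the highest of 3 libraries (grey undivided, green lingual, purple buccal). Skeletal muscle markers reach 4660 to 4960 CPM in Cap-B + 2D, and erythroid markers fall to 20.4 to 29.1 CPM in both cultured groups.

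All 10 members were expressed in every library, over a wide range. Per kilobase of exon, in mean CPM of Cap-L, H19 (1630) stood first, followed by Cdkn1c (309), Mest (231), Grb10 (208), Plagl1 (154), Peg3 (94.1), Dlk1 (83), Meg3 (72.4), Ndn (29.2) and Rtl1 (1.53). H19 was first in every group, from 1110 CPM per kilobase in Bell-W to 4130 in Cap-B + 2D. Rtl1 was last in every group, between 0.751 and 3.44. The spread across groups differed between members. Between the lowest and the highest group mean, Dlk1 ran from 104 to 872 CPM, whereas Grb10 ran only from 1340 to 1890 CPM.

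**Figure D2:**
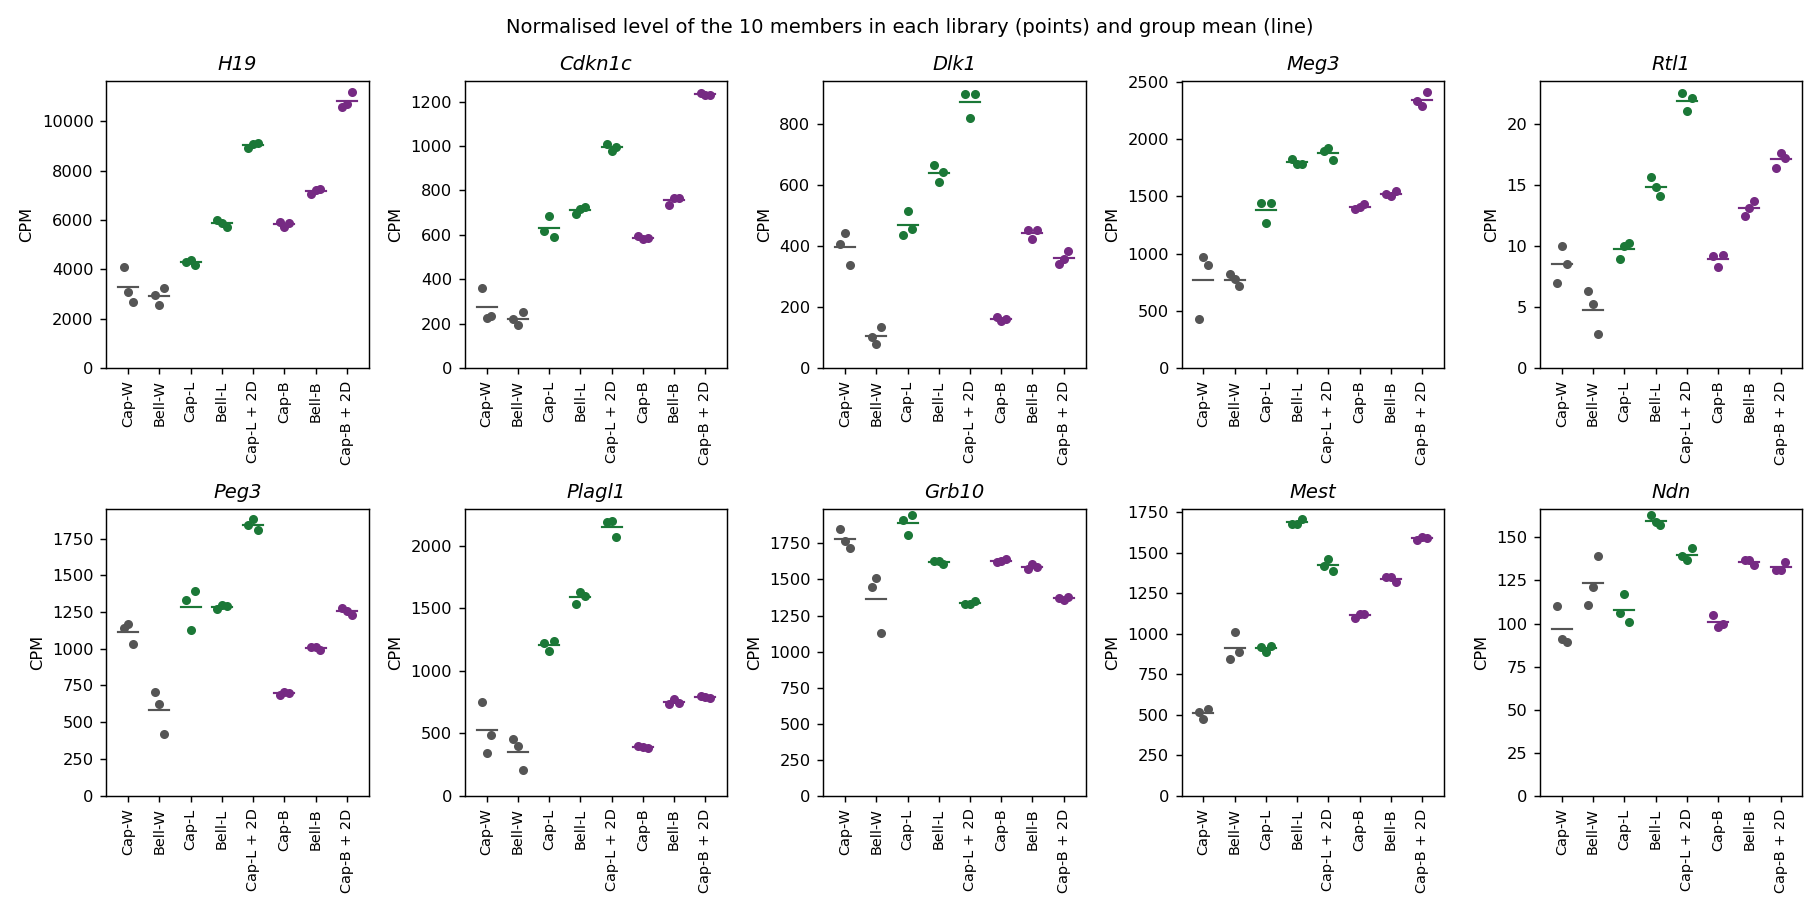
Level of each of the 10 genes in CPM (linear axis from 0) in the 24 libraries, by group. Points are libraries, lines are group means (n = 3), grey marks undivided, green lingual and purple buccal mesenchyme. In Bell-W, 9 of the 10 genes lie below every library of Bell-L and Bell-B, where 9.08% of 20940 genes do. In Cap-W, 4 of the 10 lie below every library of Cap-L and Cap-B, where 16.8% of genes do. These counts were made after the values were seen.

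The first question was how these genes changed from cap to bell stage. A gene was taken to have risen or fallen where edgeR's quasi-likelihood test gave a Benjamini-Hochberg adjusted p under 0.05 over all genes tested and the log2 fold change exceeded 0.5 in size. All adjusted p-values below come from that test. All stage values are bell over cap. In undivided mesenchyme Dlk1 and Peg3 fell and Mest rose. In the separate lingual and buccal parts none of the 10 fell, and Rtl1 rose in both. The count was 3 of 10 in undivided mesenchyme, where 14.5% of 20940 genes passed (10.3% upward and 4.21% downward). It was 3 of 10, all upward, in the lingual part, where 20.0% of 21425 genes passed (14.2% upward and 5.78% downward), and 4 of 10, all upward, in the buccal part, where 18.7% of 21992 passed (12.0% upward and 6.73% downward). The 10 genes' median log2 fold change was -0.35 in undivided mesenchyme, beside a median of -0.033 over all genes tested there, and 0.43 and 0.39 in the lingual and buccal parts, beside 0.002 and 0.005. The libraries of the 2 stages did not overlap for 6 members in undivided mesenchyme, where that held for 36.8% of genes, for 9 in the lingual part (55.9% of genes) and for 10 in the buccal part (55.4% of genes).

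Dlk1 gave the largest stage differences of the 10 in undivided and in buccal mesenchyme, in opposite directions. Its level was 405, 442 and 338 CPM in the 3 Cap-W libraries and 101, 76.8 and 134 CPM in Bell-W. The groups were far apart, and Dlk1 fell by 1.94 on the log2 scale (SE 0.22, adjusted p = 0.00147). In the buccal part it was 168, 155 and 160 CPM in Cap-B against 452, 422 and 451 CPM in Bell-B, a rise of 1.44 ± 0.04 (log2 fold change ± SE, adjusted p = 1.07e-24). In the lingual part it was 437, 514 and 456 CPM in Cap-L against 665, 608 and 643 CPM in Bell-L. Those groups did not overlap, and the log2 fold change of 0.45 ± 0.05 (adjusted p = 1.4e-07) stayed under the limit of 0.5.

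Its 2 neighbours on chromosome 12 changed less than Dlk1 in undivided and in buccal mesenchyme. Meg3 measured 432, 972 and 904 CPM in Cap-W and 821, 779 and 720 CPM in Bell-W, overlapping groups with a log2 fold change of -0.01 ± 0.29 (adjusted p = 0.981). The low Cap-W value is that of replicate 1, the library with the high share of ribosomal counts. Meg3 did not pass in the parts either, at 0.39 ± 0.05 in the lingual and 0.10 ± 0.03 in the buccal comparison. Rtl1 had 6.96, 9.95 and 8.51 CPM in Cap-W and 6.31, 5.23 and 2.78 CPM in Bell-W (log2 fold change -0.85 ± 0.32, adjusted p = 0.122). In the parts it rose, from 8.95, 10 and 10.2 CPM in Cap-L to 15.6, 14.8 and 14.1 CPM in Bell-L (0.61 ± 0.08), and from 9.17, 8.25 and 9.23 CPM in Cap-B to 12.4, 13.1 and 13.7 CPM in Bell-B (0.55 ± 0.08). The buccal rise of Rtl1 went under the fold limit, to 0.50, without Cap-B replicate 2. How much of the Rtl1 count came from the antisense strand could not be told apart.

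Of the zinc finger genes, Peg3 had 1140, 1170 and 1030 CPM in Cap-W and 703, 625 and 420 CPM in Bell-W. It fell by 0.95 on the log2 scale (SE 0.20, adjusted p = 0.0175), a call that was lost without Cap-W replicate 2, Cap-W replicate 3 or Bell-W replicate 2 (adjusted p of at most 0.0595). In the buccal part Peg3 rose from 686, 708 and 701 CPM to 1010, 1010 and 991 CPM (0.51 ± 0.03), whereas in the lingual part it had 1130 to 1390 CPM at cap and 1270 to 1300 CPM at bell (0.02 ± 0.06, adjusted p = 0.82). Plagl1 rose in the buccal part, from 394, 387 and 384 CPM to 733, 778 and 740 CPM (0.94 ± 0.03, adjusted p = 2.06e-22). In undivided mesenchyme Plagl1 ranged from 338 to 753 CPM at cap and from 207 to 453 CPM at bell, with a log2 fold change of -0.58 ± 0.35 (adjusted p = 0.319) that became 0.05 without Cap-W replicate 1 and Bell-W replicate 3. Without those 2 libraries Dlk1, Peg3 and Mest kept their calls and Rtl1 fell as well (-0.68).

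Mest was the member that rose in undivided mesenchyme. It had 514, 473 and 537 CPM in Cap-W and 845, 1010 and 886 CPM in Bell-W (0.83 ± 0.13, adjusted p = 0.00472). In the lingual part it rose from 917, 890 and 922 CPM to 1680, 1680 and 1710 CPM (0.90 ± 0.04, adjusted p = 2.53e-15), and in the buccal part it went from 1100, 1120 and 1120 CPM to 1350, 1350 and 1320 CPM without passing the fold limit (0.26 ± 0.03). Ndn rose in the lingual part, from 106, 117 and 101 CPM to 163, 159 and 157 CPM (0.58 ± 0.05). H19, Cdkn1c and Grb10 did not pass in any of the 3 stage comparisons. Their log2 fold changes were -0.18, 0.46 and 0.29 for H19, -0.31, 0.18 and 0.35 for Cdkn1c, and -0.40, -0.21 and -0.04 for Grb10, in the order undivided, lingual, buccal.

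**Figure D3:**
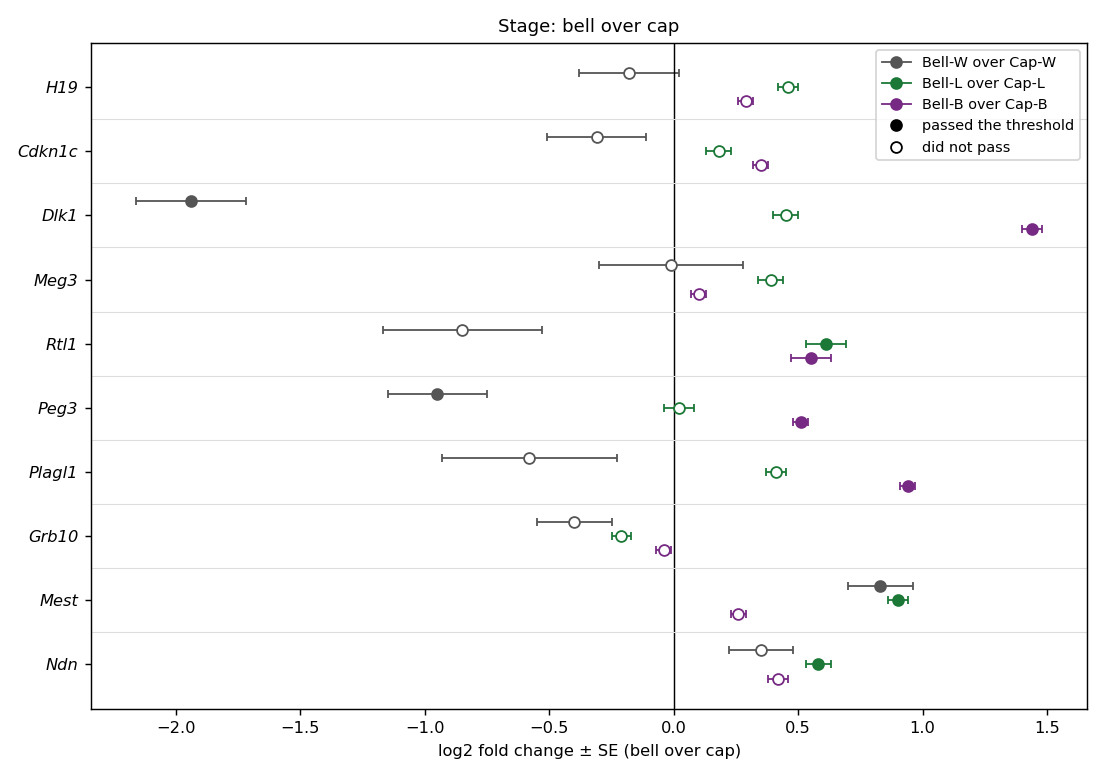
Log2 fold change (bell over cap) with its standard error for each gene in undivided (grey), lingual (green) and buccal (purple) mesenchyme, 3 libraries a group. Filled points passed adjusted p under 0.05 and a log2 fold change over 0.5 in size. Dlk1 lies at -1.94 in undivided and at 1.44 in buccal mesenchyme, and the undivided bars are the widest.

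Whether the stage change differed between undivided mesenchyme and its parts was tested directly, in a comparison added after the values were seen. For the lingual part the difference of the stage changes passed (adjusted p under 0.05, with no limit on its size) for 3 of 10 members, all higher in the part, where 7.01% of 22281 genes passed (2.63% higher and 4.38% lower). These were Dlk1 (2.36 ± 0.24), Rtl1 (1.45 ± 0.33) and Peg3 (0.94 ± 0.22). For the buccal part 5 of 10 passed, where 10.2% of 22117 genes did (3.59% higher and 6.57% lower). Dlk1 (3.37 ± 0.24), Plagl1 (1.52 ± 0.39), Peg3 (1.46 ± 0.20) and Rtl1 (1.40 ± 0.33) were higher in the part and Mest (-0.58 ± 0.12) was lower. Leaving out 1 library left 1 to 4 members called in the lingual and 3 to 7 in the buccal comparison. Rtl1 and Peg3 lost their lingual call without Cap-L replicate 1 or 2 or without any 1 of the 3 Bell-L libraries, and Plagl1 lost its buccal call without any 1 of the 6 buccal libraries. The buccal count fell to 3 without Cap-B replicate 2 or Bell-B replicate 3. Dlk1 stayed past the threshold in each of these fits.

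Levels were also compared between undivided and divided tissue within each stage, which does not test the stage change. All 3 Bell-W libraries were below every Bell-L and Bell-B library for 9 of the 10 members, with Ndn as the exception, and 9.08% of 20940 genes did the same. This count was made after the values were seen. For Dlk1 the 76.8 to 134 CPM of Bell-W compare with 422 to 452 CPM in Bell-B and 608 to 665 CPM in Bell-L. For Cdkn1c, 192 to 252 CPM in Bell-W compare with 735 to 765 CPM in Bell-B and 694 to 725 CPM in Bell-L. Cap-W was low too, at 226 to 362 CPM against 583 to 594 CPM in Cap-B and 592 to 683 CPM in Cap-L. The stage change of Cdkn1c did not pass the test of the difference (0.47 ± 0.22 lingual, 0.66 ± 0.22 buccal). Those of H19 and Meg3 did not pass either. At cap stage 4 members, H19, Meg3, Mest and Cdkn1c, were below both parts, and 16.8% of genes were. No member was above both parts at either stage, where 13.0% of genes at cap and 10.4% at bell were. Without Cap-W replicate 1 and Bell-W replicate 3 the counts were 10 at bell and 5 at cap, where 18.6% and 23.4% of genes did so.

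Markers of other cell types moved along with this. In the parts 12 of 12 muscle markers rose with stage on either side, against 0 of 9 tested in undivided mesenchyme. Bone markers rose in undivided mesenchyme (4 of 6) and in the buccal part (3 of 7) and fell in the lingual part (5 of 7). In the test of the difference between part and undivided tissue, the stage change of bone markers was lower in the lingual part for 6 of 6 (median -2.96) and in the buccal part for 3 of 6, and that of endothelial markers was lower for 7 of 7 in both. Macrophage markers were lower in that test for 2 of 8 in the lingual and 7 of 8 in the buccal part, and muscle markers were higher for 10 of 12 in both. The muscle sum was 11.2 to 24.1 CPM in Bell-W, whose replicates 1 and 2 carried the raised ribosomal share, and at least 145 CPM in either bell part, and the endothelial sum was 193 to 203 CPM in Cap-W against 419 to 482 CPM in the cap parts. Their part in the levels of the imprinted genes was not tested. Undivided and divided tissue were also dissected differently, and that handling cannot be told apart from the difference.

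The second question was the response to culture. The values are cultured over uncultured cap part. Most of the 10 rose. In the lingual part 7 rose and none fell, where 35.4% of 21425 genes passed (19.6% upward and 15.9% downward). In the buccal part 7 rose and none fell, where 34.5% of 21992 genes passed (17.9% upward and 16.6% downward). H19, Cdkn1c, Dlk1, Rtl1, Peg3 and Plagl1 rose in both, Mest passed in the lingual and Meg3 in the buccal part. The members' median log2 fold change was 0.66 in the lingual and 0.85 in the buccal part, beside -0.032 and -0.020 over all genes. Cultured and uncultured libraries did not overlap for any of the 10 in either part, where that held for 67.5% of genes in the lingual and 69.0% in the buccal part.

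H19 was already the most abundant member and rose further, from 4310, 4360 and 4190 CPM in Cap-L to 8920, 9090 and 9130 CPM in Cap-L + 2D (1.08 ± 0.04, adjusted p = 3.02e-17). In the buccal part it went from 5920, 5730 and 5870 CPM to 10600, 10700 and 11200 CPM (0.87 ± 0.03, adjusted p = 2.3e-22). Every cultured library lay above every uncultured library of all 6 other groups. Meg3 rose from 1390, 1410 and 1430 CPM to 2330, 2290 and 2410 CPM in the buccal part (0.71 ± 0.03) and went from 1270 to 1440 CPM to 1820 to 1920 CPM in the lingual part (0.45 ± 0.05, under the fold limit).

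Cdkn1c, whose product holds cells out of the cell cycle, had 616, 683 and 592 CPM in Cap-L and 1010, 979 and 995 CPM in Cap-L + 2D (0.67 ± 0.05). In the buccal part it doubled, from 594, 583 and 585 CPM to 1240, 1230 and 1230 CPM (1.05 ± 0.03, 2.07-fold, adjusted p = 9.27e-25). Of 10 proliferation genes such as Mki67 and Ccnb1, 9 fell in the cultured lingual and 3 in the cultured buccal part. None of them rose. Over all genes, 15.9% fell in the lingual and 16.6% in the buccal part. Whether the proliferation genes and Cdkn1c were linked was not tested. Grb10, which damps growth factor signals, had lower values after culture without passing the fold limit. It had 1910, 1810 and 1950 CPM in Cap-L and 1330, 1330 and 1350 CPM in Cap-L + 2D (-0.49 ± 0.04), and 1620 to 1640 CPM against 1360 to 1380 CPM in the buccal part (-0.27 ± 0.03). The lingual groups do not overlap and lie at the fold limit, which Grb10 passed without Cap-L replicate 2 (-0.52) or Cap-L + 2D replicate 3 (-0.51).

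Dlk1 rose to 899, 818 and 899 CPM in Cap-L + 2D (0.90 ± 0.05) and to 341, 356 and 383 CPM in Cap-B + 2D (1.14 ± 0.04), so that the cultured lingual libraries held its highest levels. Rtl1 rose to 22.5, 21 and 22.1 CPM in the lingual part (1.17 ± 0.07) and to 16.4, 17.6 and 17.2 CPM in the buccal part (0.92 ± 0.07). Plagl1 rose to 2190, 2200 and 2070 CPM (0.84 ± 0.04) and to 796, 790 and 781 CPM (1.00 ± 0.03). Its buccal level thus doubled and was still below that of Cap-L before culture, at 1160 to 1240 CPM.

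Peg3 rose to 1840, 1880 and 1810 CPM in the lingual part (0.53 ± 0.06), which went under the fold limit without Cap-L replicate 2 (0.44), and to 1280, 1260 and 1230 CPM in the buccal part (0.82 ± 0.03). Mest rose in the lingual part, to 1420, 1460 and 1390 CPM (0.65 ± 0.04). In Cap-B + 2D it stood at 1580 to 1600 CPM, a change of 0.49 ± 0.03. That buccal change ran from 0.48 to 0.53 over 13 other settings and crossed the limit in 6 of them. Ndn did not pass, at 0.38 ± 0.05 and 0.38 ± 0.04, with 137 to 144 and 131 to 136 CPM after culture.

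**Figure D4:**
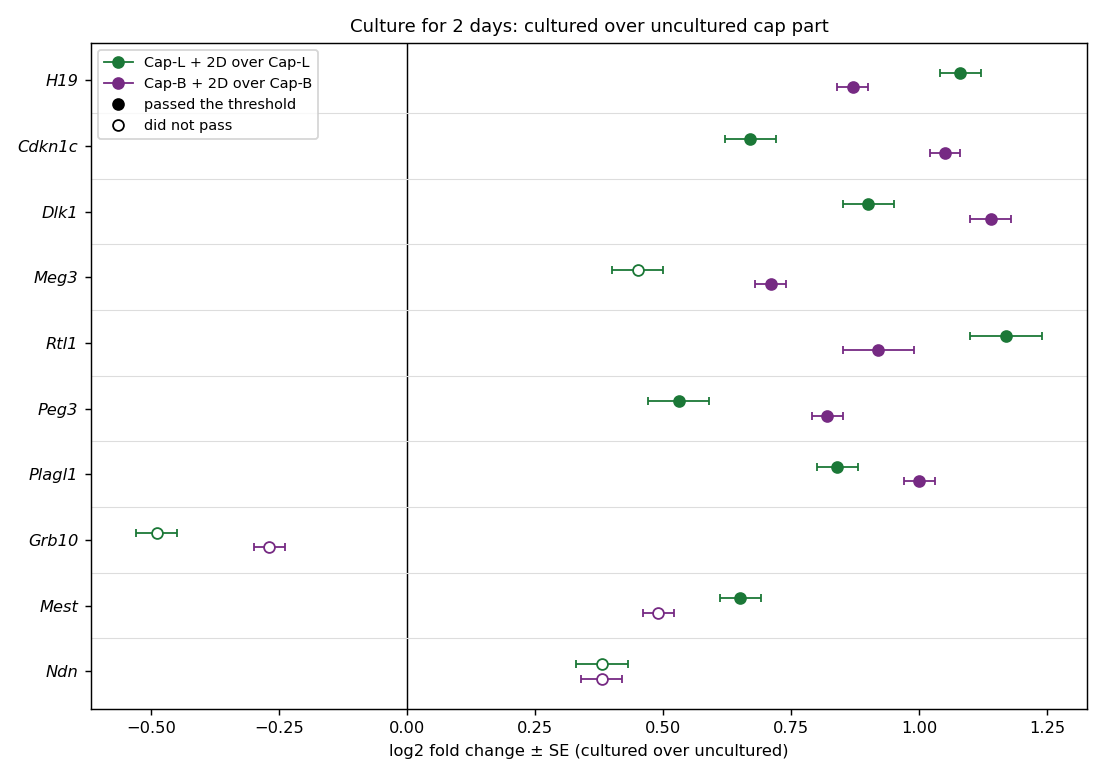
Log2 fold change (cultured over uncultured cap part) with its standard error for each gene in lingual (green) and buccal (purple) mesenchyme, 3 libraries a group. Filled points passed the threshold. Of the 10 genes, 9 lie to the right of 0 in both parts, and Grb10 lies to the left, at -0.49 and -0.27.

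The response differed between the sides for most members. The difference of the culture responses, buccal over lingual, passed for 8 of 10 at adjusted p under 0.05, where 35.5% of 22098 genes passed (16.0% higher and 19.5% lower). Cdkn1c (0.38 ± 0.06), Peg3 (0.28 ± 0.07), Meg3 (0.25 ± 0.06), Dlk1 (0.23 ± 0.08), Grb10 (0.21 ± 0.05) and Plagl1 (0.15 ± 0.06) were higher in the buccal part, and H19 (-0.22 ± 0.06) and Mest (-0.17 ± 0.05) lower. Leaving out 1 library left 7 to 9 called, with Plagl1 and Dlk1 among those lost. None of the 8 passed when all 24 libraries shared 1 estimate of the spread.

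Cell types changed in culture as well. Of 10 dental mesenchyme markers, 1 rose and 4 fell in the lingual part, and 1 rose and 3 fell in the buccal part. Muscle markers rose, 11 of 12 in the lingual and 12 of 12 in the buccal part, with Myh3, an embryonic myosin, going from 41.2 to 46.9 CPM in Cap-B to 1150 to 1220 CPM in Cap-B + 2D, and erythroid markers fell to near 0, 7 of 7 in either part. Of 7 bone genes, 5 rose and 1 fell in the cultured lingual part, and 5 rose and 2 fell in the buccal part. The bone sum was 2380 to 2410 CPM in Cap-L + 2D against 966 to 986 CPM in Cap-L, and 585 to 606 CPM in Cap-B + 2D against 446 to 463 CPM in Cap-B. Macrophage markers rose, 8 of 8 in the lingual and 7 of 8 in the buccal part. Epithelial markers fell for 5 of 8 and 7 of 8, Schwann and glial markers for 5 of 7 in both, and endothelial markers for 2 of 7 and 7 of 7. Whether these shifts carried the members' levels was not tested.

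Tissue that had aged 2 days in culture was set beside tissue that had aged 2 days in the embryo. The cultured parts share their libraries with the comparison above, so the values are given side by side. Over Bell-L, H19 (0.62 ± 0.04), Rtl1 (0.56 ± 0.07) and Peg3 (0.51 ± 0.06) were higher in Cap-L + 2D, 3 of 10 members where 31.2% of genes passed (14.4% higher and 16.8% lower). Over Bell-B, Cdkn1c (0.70 ± 0.03), Meg3 (0.61 ± 0.03) and H19 (0.59 ± 0.03) were higher in Cap-B + 2D, 3 of 10 where 31.8% passed (15.5% higher and 16.3% lower). No member was called lower. The groups did not overlap for 9 members on either side, all but Meg3 in the lingual and all but Ndn in the buccal part, where that held for 67.3% and 66.8% of genes. Mest in the lingual part and Dlk1 in the buccal part stood below their bell levels, by log2 fold changes of -0.25 ± 0.04 and -0.31 ± 0.04 that did not pass the fold limit. Plagl1 in the buccal part was nearly level, with 781 to 796 CPM in culture and 733 to 778 CPM at bell (0.06 ± 0.03, adjusted p = 0.073). Markers of other cell types differed as well. Muscle markers were higher in culture than at bell for 10 of 12 in the lingual and 11 of 12 in the buccal part, and bone markers for 6 of 7 and 4 of 7. Epithelial markers were lower for 8 of 8 and 7 of 8, erythroid markers for 7 of 7 and 6 of 7, Schwann and glial markers for 7 of 7 and 6 of 7, endothelial markers for 3 of 7 and 7 of 7, and proliferation genes for 6 of 10 and 5 of 10. Their part in the members' values was not tested.

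The third question was the side of the tooth germ, given as buccal over lingual. Plagl1, Dlk1 and Peg3 were higher on the lingual side. At cap stage these 3 of 10 passed and none was higher on the buccal side, where 17.5% of 20653 genes passed (10.4% higher in the buccal part and 7.10% lower). At bell stage Plagl1 and Dlk1 passed, where 12.9% of 21181 genes did (6.00% higher and 6.88% lower). After culture all 3 passed again, where 25.1% of 21195 genes did (12.5% in each direction).

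Plagl1, which encodes a zinc finger factor that restrains proliferation, had the widest gap at each time. At cap stage it measured 1220, 1160 and 1240 CPM in Cap-L and 394, 387 and 384 CPM in Cap-B (-1.61 ± 0.05, a 3.06-fold difference, adjusted p = 3.75e-15). The difference was -1.08 ± 0.03 at bell stage and -1.46 ± 0.04 after culture. Dlk1 was 2.86-fold lower in Cap-B than in Cap-L (-1.52 ± 0.05), 1.45-fold lower at bell (-0.53 ± 0.03) and 2.44-fold lower in culture (-1.28 ± 0.04). Peg3 differed by -0.85 ± 0.06 at cap, -0.36 ± 0.03 at bell, under the limit, and -0.56 ± 0.03 after culture. The lingual and buccal libraries of these 3 genes did not overlap at any of the 3 times. Over all 10 members this held for 6 at cap, 9 at bell and 10 after culture, where 52.4%, 45.5% and 59.1% of genes did not overlap.

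Muscle markers went the other way, with 11 of 11 tested higher on the buccal side at cap stage, 11 of 12 at bell and 11 of 11 after culture. Their median log2 fold changes were 3.70, 2.67 and 3.66. Epithelial markers went with the 3 genes, 7 of 8 higher on the lingual side at cap stage. At bell 2 of 8 were higher there, and after culture 6 of 8. Bone markers were higher on the lingual side at cap stage (6 of 6) and after culture (7 of 7, median -1.56). At bell 1 of 6 bone markers was higher on the lingual and 2 on the buccal side. Cartilage markers were higher on the lingual side for 4 of 5 at cap and after culture and for 0 of 5 at bell. Endothelial markers were higher there after culture (6 of 7), and macrophage markers at bell and after culture (6 of 8 each). Schwann and glial markers were higher on the buccal side, 6 of 7 at cap, 5 of 7 at bell and 3 of 4 after culture. Their part in the difference was not tested.

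The other 7 members passed on neither side. Every buccal H19 library was above every lingual one of the same time, with log2 fold changes of 0.47, 0.29 and 0.26 at cap, bell and culture, all under the limit. Mest had values of both signs, at 0.32 ± 0.04 at cap, -0.33 ± 0.03 at bell and 0.15 ± 0.03 after culture. Ndn, Rtl1 and Grb10 stayed within 0.37 of 0 at each time, as did Meg3 and Cdkn1c.

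**Figure D5:**
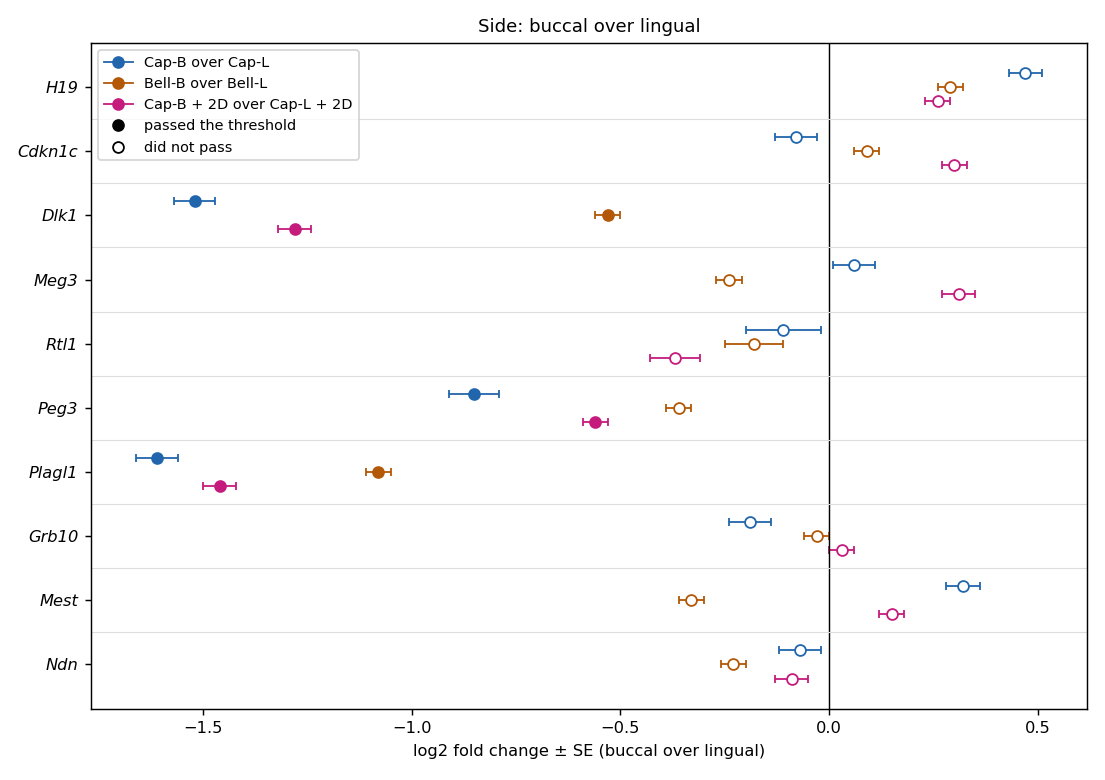
Log2 fold change (buccal over lingual) with its standard error for each gene at cap stage (blue), at bell stage (orange) and after 2 days of culture (pink), 3 libraries a group. Filled points passed the threshold. Plagl1 and Dlk1 are left of 0 at all 3 times, and both lie nearest to 0 at bell stage, at -1.08 and -0.53.

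The side difference changed from cap to bell for 9 of 10 members at adjusted p under 0.05, where 32.5% of 21931 genes passed (14.5% higher and 18.0% lower), with Rtl1 as the exception. The gap narrowed for the 3 lingual genes, by 0.98 ± 0.07 for Dlk1, 0.52 ± 0.06 for Plagl1 and 0.49 ± 0.07 for Peg3. For Mest it shifted toward the lingual side (-0.65 ± 0.05, adjusted p = 2.17e-11). The values of Meg3 (-0.30), H19 (-0.18), Ndn (-0.16), Grb10 (0.16) and Cdkn1c (0.16) were smaller. Leaving out 1 library left 6 to 9 called, with Ndn, Cdkn1c and Grb10 lost most often. With all 24 libraries in 1 fit 3 of the 9 passed, Dlk1, Peg3 and Mest.

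The group means of some members ran together over the 8 groups. These correlations are descriptions, over points that share libraries, scaling and cell makeup. Meg3 and Cdkn1c, on different chromosomes, had the highest correlation of any pair of members (Pearson's r of 0.98), followed by Dlk1 and Peg3 (0.96) and by H19 and Cdkn1c (0.95). Dlk1 ran less closely with its own neighbour Meg3 (0.54) than with Plagl1 and Peg3 (0.91 and 0.96), and stood in between with its other neighbour Rtl1 (0.84). Grb10 had a negative r with H19 (-0.42), Mest (-0.49) and Ndn (-0.52).

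Among 14401 genes, the pattern most like that of Dlk1 was that of Peg3 (0.960), followed by Tob1 (0.948). For Cdkn1c it was Meg3 (0.980), for Meg3 Gm27000 (0.992), and for Peg3 Gm3774 (0.961), just before Dlk1 (0.960). For H19 it was Smad1 (0.980), then Igfbp2 (0.977), and for Grb10 the pseudogene Bod1-ps (0.978). For Plagl1 it was Gm12168 (0.989), then Ccdc8 (0.966), for Mest Tnfsf12 (0.990), for Ndn Hpgds (0.967) and for Rtl1 Sik1 (0.971).

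A list of 38 other genes known to be imprinted in some mouse tissue, of which 37 were found, gave the surroundings. Whether each is imprinted in dental mesenchyme was not measured. In undivided mesenchyme 5 of 35 tested rose with stage and 9 fell, where 10.3% and 4.21% of all genes did. The 5 with the largest changes were Peg10 (-3.20), Dcn (2.84), Tfpi2 (2.63), Asb4 (-2.27) and Rasgrf1 (2.04), on the log2 scale. Tfpi2 and Rasgrf1 rest on few reads at cap stage, with 0.0659 to 0.269 and 0.223 to 0.494 CPM in Cap-W, where 3 read pairs make up to 0.146 CPM. Igf2, the fetal growth factor next to H19, fell from 268 to 426 CPM in Cap-W to 110 to 136 CPM in Bell-W (-1.39), although 64.5% of its exon bases are shared with other annotated genes. Igf2 did not pass in the lingual (-0.09) or buccal (-0.22) part. Of the list, 10 of 37 rose and 5 fell with stage in the lingual part, where 14.2% and 5.78% of all genes did. The largest changes there were those of Dcn (2.13), Phlda2 (-2.00), Dio3 (1.89), Gatm (1.38) and Peg10 (-1.19). In the buccal part 9 of 36 rose and 3 fell, where 12.0% and 6.73% of all genes did. These were led by Dio3 (2.20), Klf14 (1.79), Zim1 (1.68), Nnat (-1.26) and Gatm (1.25).

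In culture 12 of 37 of these genes rose and 5 fell in the lingual part, where 19.6% and 15.9% of all genes did. They were led by Rasgrf1 (2.66), Nnat (-1.73), Dcn (1.46), Dio3 (1.40) and Zfp264 (-1.14). In the buccal part 10 of 36 rose and 6 fell, where 17.9% and 16.6% of all genes did. These were led by Klf14 (2.30), Rasgrf1 (2.28), Zim1 (2.05), Gatm (1.84) and Mirg (1.51). The noncoding neighbours of Meg3 moved unequally in the buccal part. Mirg rose from 24.4 to 26.2 CPM to 69.4 to 75.3 CPM, whereas Rian went from 380 to 387 CPM to 509 to 548 CPM (0.44) and did not pass.

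By side, 9 of 36 were higher on the lingual and 5 on the buccal side at cap stage. Over all genes, 7.10% and 10.4% were. The list was led by Dcn (2.15), Zim1 (-1.98), Phlda2 (-1.85), Klf14 (-1.47) and Dio3 (-1.34). Zim1, a neighbour of Peg3 on chromosome 7, and Dio3, at the far end of the Dlk1 cluster, were thus higher on the lingual side at cap stage, as Peg3 and Dlk1 were. The genes between Dlk1 and Dio3 did not pass there, with log2 fold changes of 0.06 for Meg3, -0.11 for Rtl1, 0.12 for Rian and 0.04 for Mirg. Dio3 measured 8.09 to 9.58 CPM in Cap-L and 3.15 to 4.1 CPM in Cap-B. It was higher on the lingual side at bell (-1.03) and in culture (-1.44) as well. At bell stage 7 of 35 listed genes were higher on the lingual side and 2 on the buccal side, and in culture 8 and 6 of 36. Over all genes, 6.88% and 6.00% were at bell, and 12.5% in each direction in culture.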

How the data were processed

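The authors sequenced mRNA libraries of dental mesenchyme, with RNA extracted by TRIzol. The deposited values are raw counts of read pairs per gene, summed over exons with featureCounts 2.0.0 on GRCm39 and Ensembl annotation 107, per the file headers, without strand and without pairs that mapped to several places or could not be assigned to a single gene. The submitters' processing notes name Bowtie 1.2.3, Trimmomatic 0.39 and Subread 2.0.3, whereas the study's methods name STAR and another library kit in one place and, in another, the same Subread release and annotation as the file header, so the counting is settled but the aligner and the kit's strandedness are not. No library was left out.

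Symbols came from GENCODE M39 by gene identifier. Genes were filtered with filterByExpr, scaled by TMM and tested with edgeR 4.0.16 (quasi-likelihood, Benjamini-Hochberg over all genes tested, threshold 0.05, log2 fold change limit 0.5, no limit for differences of differences). The lingual and buccal comparisons were fitted over 9 libraries, the undivided and side comparisons over 6, differences over 12. CPM used 1 TMM scaling over 24 libraries. The scripts were tested on simulated data. Like patterns were ranked by Pearson's r of log2 group means over genes with an average log2 CPM above 2. DESeq2 1.42.0, RLE scaling, other filters, a replicate block, other fold limits and leaving out libraries were tried. The 10 genes, the lists and the tests were chosen with earlier results of these data known. The genes named are the 10, the 5 other imprinted genes with the largest called changes in a comparison, and Igf2, Rian, Mirg and Dio3. Values after ± are standard errors, taken as the size of the log2 fold change divided by the square root of the test's F statistic.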

Additional observations from a re-analysis of the deposited data

Results flagged for a closer look

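The change of the side difference from cap to bell stage was tested as an interaction, and 9 of the 10 genes passed, where 32.5% of 21931 genes did. The values, as the buccal minus the lingual log2 stage change, were 0.98 for Dlk1, 0.52 for Plagl1, 0.49 for Peg3, 0.16 for Grb10 and 0.16 for Cdkn1c, and -0.65 for Mest, -0.30 for Meg3, -0.18 for H19 and -0.16 for Ndn. With all 24 libraries in 1 fit 3 passed, and over 20 other settings the call changed in 16 for Ndn and in 9 for Cdkn1c.

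The difference of the culture responses between the parts passed the same kind of test for 8 of the 10 genes, where 35.5% of 22098 genes passed. The buccal minus the lingual log2 response was 0.38 for Cdkn1c, 0.28 for Peg3, 0.25 for Meg3, 0.23 for Dlk1, 0.21 for Grb10 and 0.15 for Plagl1, and -0.22 for H19 and -0.17 for Mest. With all 24 libraries in 1 fit 0 passed, and the call of Plagl1 changed in 9 of 19 other settings.

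The difference of the stage changes between divided and undivided mesenchyme passed for 3 genes in the lingual and 5 in the buccal part, where 7.01% and 10.2% of genes passed, in a test added after the values were seen. The lingual minus the undivided log2 stage change was 2.36 for Dlk1, 1.45 for Rtl1 and 0.94 for Peg3. The buccal minus the undivided value was 3.37 for Dlk1, 1.52 for Plagl1, 1.46 for Peg3, 1.40 for Rtl1 and -0.58 for Mest.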

How the results depend on the processing

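The number of the 10 genes called is given here where an alternative moved it by more than 1.5 times, and the cause was not tested unless named. With all 24 libraries in 1 fit it was 5 for stage in undivided mesenchyme, 3 for side by stage, 0 for side by culture, and 5 and 8 for stage by division in the lingual and buccal parts. Of all 23402 genes in that fit, 5887, 2581, 4048, 4132 and 4446 passed, in the same order. Leaving the 100 most abundant genes out took most members out of the test itself and left 1 for stage in undivided mesenchyme, 2 and 3 for culture, 1 and 0 for culture against bell (lingual, then buccal), 1 for side at each of the 3 times, 2 for side by stage, 1 for side by culture and 3 for buccal stage by division. With a log2 fold limit of 0 the counts were 9 and 9 for stage in the parts, 9 and 8 for culture against bell, and 6, 9 and 8 for side at cap, bell and culture. With a limit of 1 they were 1, 0 and 1 for stage (undivided, lingual, buccal), 2 and 3 for culture, 0 and 0 for culture against bell, 1 for side at bell, and 0 for both side interactions. With a limit of 0.5 the interactions gave 3 for side by stage and 0 for side by culture. The share of all genes passing at these other fold limits was not counted, so these member counts cannot be set beside it. Leaving out 1 library gave 2 to 3, 3 to 4 and 3 to 4 for stage (undivided, lingual, buccal), 7 to 8 for culture in either part, 6 to 9 for side by stage, 7 to 9 for side by culture, and 1 to 4 and 3 to 7 for stage by division. Culture against bell and side kept their counts of 3, 3, 3, 2 and 3. Over all genes, 3037 calls for stage in undivided mesenchyme became 5887 with all 24 libraries, 1758 without Cap-W replicate 3 and 1832 without Bell-W replicate 2. Side by stage went from 7137 to 2581 and side by culture from 7842 to 4048 with all 24 libraries, and stage by division from 1562 to 4132 (lingual, 772 to 2383 with 1 library left out) and from 2247 to 4446 (buccal, 1474 to 3469). Values near 0 changed sign. Meg3 for stage in undivided mesenchyme (-0.01) became 0.01 with no filter, 0.00 with at least 10 counts, 0.01 with all 24 libraries, 0.07 with the replicate block and 0.02 when centred, and ran from -0.31 to 0.19 with 1 library left out. Plagl1 there became 0.05 without Cap-W replicate 1 and Bell-W replicate 3. Ndn for side by culture became 0.02 with all 24 libraries. With 1 library left out, Peg3 for lingual stage ran from -0.07 to 0.07, Meg3 for side at cap from -0.01 to 0.09 and Ndn for side by culture from -0.08 to 0.03, and for stage by division Mest ran from -0.00 to 0.12 (lingual), Meg3 from -0.10 to 0.41 and Ndn from -0.00 to 0.17 (buccal). The same replicate numbers did not deviate together (no comparison had all 3 correlations over 0.1), although in undivided and in buccal stage every sample correlated best with its own number, a hint from the data and not from the design. With the replicate number as a block, side by stage gave 8 called in place of 9, and no other count of members changed. Among the 10 genes Rtl1 rests on the fewest counts (as low as 2.78 CPM). Of the other imprinted genes named, Tfpi2, Rasgrf1, Phlda2 and Zfp264 had a mean under 1 CPM in at least 1 group, so the size of their changes is uncertain.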
